A study of Mus musculus with 8 samples.

Results

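The genes described here are 10 members of the cGAS-STING pathway and of the enzymes that clear DNA and its signalling products: Mb21d1 (cGAS), Tmem173 (STING), Tbk1, Ikbke, Mavs, Trex1, Samhd1, Enpp1, Dnase2a and Slc19a1. They were taken by symbol from the per-library counts, and all 10 were found among 24421 gene symbols. Mouse macrophages grown in culture from bone marrow (BMDM) were sequenced as bulk RNA after 24 h of interleukin 4 (IL-4), the cytokine of alternative activation. The 4 CKO libraries (replicates 2, 6, 7 and 8) carry the genotype OPA1f/f; Lyz2-Cre, and the 4 FLOX libraries (replicates 3, 4, 6 and 7) the genotype OPA1f/f. Both groups thus carry the floxed Opa1 alleles and both received IL-4, and only CKO carries Cre. In Lyz2-Cre the recombinase is driven by the Lyz2 locus, which is active in myeloid cells, so deletion of Opa1 and presence of the driver cannot be told apart. The labels state neither ages nor whether the libraries of one group are from separate animals, so each p-value here covers the spread among these libraries and may be technical. The title of the study names mitochondrial DNA and this pathway, and the comparison asks how its genes differ between the genotypes under IL-4.

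cGAS binds double-stranded DNA in the cytosol and makes cyclic GMP-AMP (cGAMP), which binds STING on the endoplasmic reticulum. STING then moves to the Golgi and recruits the kinase TBK1, which phosphorylates the transcription factor IRF3 and leads to type I interferon. DNA that would feed the sensor is removed by DNase II in lysosomes and by TREX1 in the cytosol. SAMHD1 lowers the supply of deoxynucleotides, and ENPP1 breaks cGAMP down outside the cell.

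The libraries hold 11764855 to 18939948 read pairs assigned to genes. Values are read counts scaled to library size (CPM), with library sizes adjusted by TMM, and differences are log2 fold changes of CKO over FLOX from edgeR's quasi-likelihood test, adjusted by Benjamini-Hochberg over 11519 tested genes and called at 0.05. The first principal component (70.2% of the variance) parted the groups, and the second (12.7%) had FLOX replicates 3 and 6 at one side and 4 and 7 at the other. The check of the labels rests on the driver gene: Lyz2 averaged 2030 ± 251 CPM in the CKO and 7439 ± 597 CPM in the FLOX libraries (SD of 4 libraries each). Opa1 counted over the whole gene stood at 100.1 ± 4.42 and 114 ± 11.6 CPM, and these totals do not resolve the deleted exons. Of 10 macrophage markers 1 rose and 4 fell, Lyz2 among them. Their summed level was 9113 to 10141 CPM in CKO and 15267 to 16292 CPM in FLOX. Lyz2, the driver gene, leads that sum over all libraries, and its own fall makes up most of the gap between the groups. In CKO Mrc1, which was not called, averaged more than Lyz2 (2310 CPM). The extraction protocol speaks of islets, and 9 of 10 islet markers, insulin and glucagon genes included, had 0 counts in every library. Of 9 markers of T, NK and B cells, Cd3e and Ncr1 were among those at 0, with a summed level of at most 1.48 CPM. For 8 erythroid and mast cell markers that sum reached at most 1.21 CPM, with Hba-a1, Hbb-bs, Mcpt8 and Fcer1a at 0. For 9 stromal and endothelial markers it was 34.7 to 36.9 CPM in CKO and 29.8 to 38.1 CPM in FLOX, and of the 3 tested among them Pecam1 (0.68) and Kdr (0.61) rose and Adipoq (-2.34) fell, as log2 fold changes.

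Of the 10 genes, 3 rose in CKO (Mb21d1, Slc19a1 and Trex1), 5 fell (Dnase2a, Ikbke, Samhd1, Tbk1 and Tmem173) and 2 did not pass the test (Mavs and Enpp1). Over all tested genes 23.8% rose, 21.6% fell and 45.4% were called in either direction, so calls as such were common in this comparison. The CPM ranges of CKO and FLOX were separate for 8 of the 10 members, against 42.7% of all tested genes. These are the same 8 that were called, and both counts rest on the same values. The median log2 fold change was -0.17 over the 10 members and -0.02 over all tested genes. Rises reached 2.33-fold in Mb21d1, whereas the deepest fall left 65.4% of the FLOX level in Dnase2a. All 10 passed the filter on low counts, with at least 85 counts in every library (Slc19a1). The same counts of 3 and 5 were obtained without CKO replicate 2 and FLOX replicate 6 together, which lay nearest to the other group for 5 and 6 of the 8 called members, without FLOX replicates 3 and 6 together, and without FLOX replicates 4 and 7 together. Under total counts alone 4 members fell, and with a log2 fold change above 0.5 also asked for 1 fell and 2 rose. With the replicate number as a block, a pairing that the labels do not state, 3 rose and 2 fell. Only numbers 6 and 7 occur in both groups, so that fit compares the genotypes in the libraries so numbered alone.

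**Figure D1:**
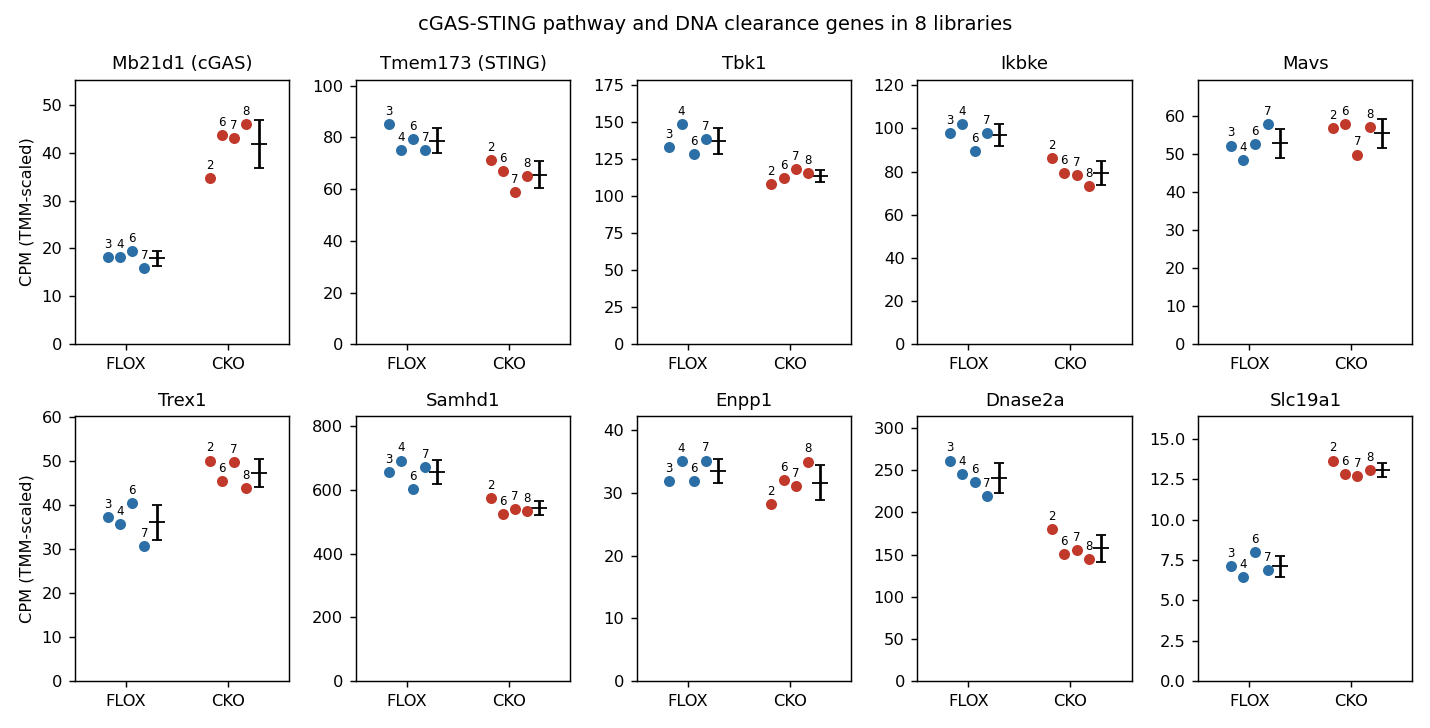
CPM of each gene in every library (points, numbered by replicate), with the mean and SD of 4 libraries in black. Mb21d1, Slc19a1 and Trex1 lie higher in all CKO libraries, Mavs and Enpp1 overlap, and the other 5 genes lie lower in all CKO libraries.

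The sensor changed most. Mb21d1 (listed as Cgas in GENCODE, ENSMUSG00000032344, chromosome 9, 78430526 to 78443237, minus strand, GRCm38) encodes cGAS and is itself known as an interferon-inducible gene. It was at 34.6, 43.6, 43.0 and 46.0 CPM in CKO replicates 2, 6, 7 and 8 and at 18.2, 18.3, 19.5 and 15.8 CPM in FLOX replicates 3, 4, 6 and 7. The lowest CKO library, replicate 2, still stood 1.78-fold above the highest FLOX library, replicate 6. The log2 fold change was 1.22 with an SE of 0.10 (edgeR adjusted p = 1.63e-06). That put CKO at 233% of the FLOX level (95% interval 201% to 269%). By size of change it ranked 402 among the tested genes and by p-value 160. All 20 alternatives called it, with log2 fold changes from 1.15 to 1.36 and 1.32 without CKO replicate 2.

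The adaptor went the other way by a small step. Tmem173 (ENSMUSG00000024349, chromosome 18, 35733679 to 35740554, minus strand) encodes STING. It was at 71.4, 66.8, 58.9 and 65.0 CPM in CKO replicates 2, 6, 7 and 8 and at 85.3, 75.1, 79.4 and 75.2 CPM in FLOX replicates 3, 4, 6 and 7. The gap between the groups was narrow, and the ratio of the highest CKO library, replicate 2, to the lowest FLOX library, replicate 4, was 0.951. The log2 fold change was -0.27 with an SE of 0.07 (edgeR adjusted p = 0.00865). That put CKO at 83.1% of the FLOX level (95% interval 74.7% to 92.5%). The call ended when libraries were scaled by total counts alone (edgeR log2 fold change -0.17, adjusted p = 0.0646). That scaling shifts the median of all genes by 0.101 on the log2 scale, and relative to that median Tmem173 stood at -0.25. It also turns the split of all calls from 2739 higher and 2492 lower to 3612 higher and 1556 lower.

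Sensor and adaptor thus came closer in count. The ratio of Mb21d1 to Tmem173 was 0.485, 0.653, 0.729 and 0.709 in CKO replicates 2, 6, 7 and 8. In FLOX replicates 3, 4, 6 and 7 it was 0.214, 0.244, 0.246 and 0.210. The group means were 0.644 ± 0.111 and 0.228 ± 0.0189 (SD of 4 libraries each), and the ranges did not overlap. The ratio is one of read counts and is not corrected for the lengths of the genes.

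**Figure D2:**
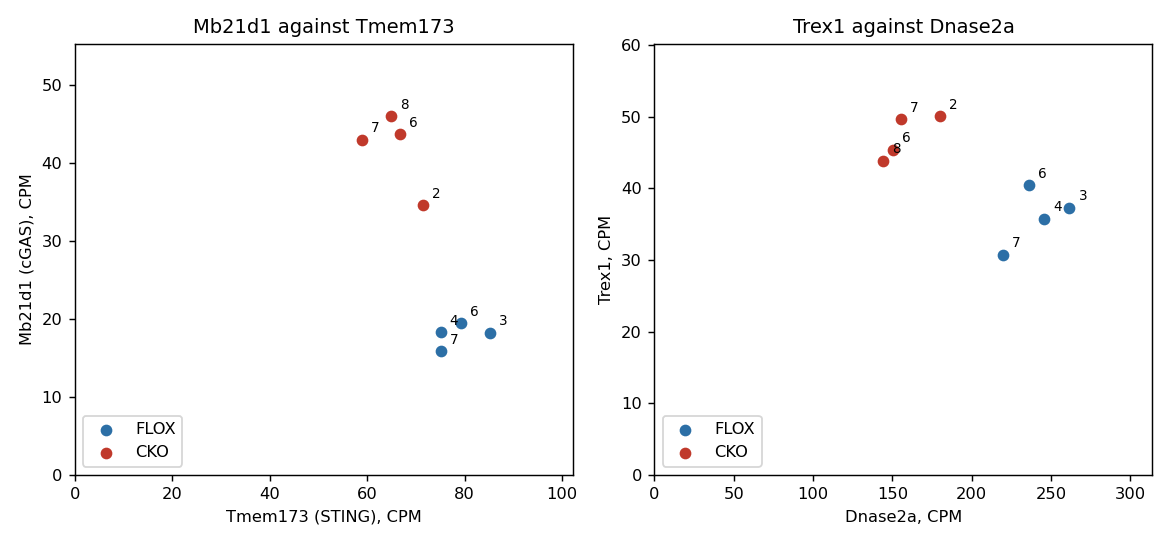
CPM of Mb21d1 against Tmem173 and of Trex1 against Dnase2a, 1 point per library, numbered by replicate. In both panels the CKO libraries lie above and to the left of the FLOX libraries, with ratios of 0.485 to 0.729 against 0.210 to 0.246 for the sensor and the adaptor.

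Both kinases that act with the adaptor were lower in CKO. Tbk1 (ENSMUSG00000020115, chromosome 10, 121546455 to 121586787), the kinase that STING recruits, was at 108, 113, 118 and 115 CPM in CKO replicates 2, 6, 7 and 8 and at 133, 149, 129 and 138 CPM in FLOX replicates 3, 4, 6 and 7. Every CKO library lay below every FLOX library, and the log2 fold change was -0.27 with an SE of 0.06 (edgeR adjusted p = 0.00315). Ikbke (ENSMUSG00000042349, chromosome 1, 131254343 to 131279606) encodes IKK-epsilon, a close relative of TBK1. It was at 86.3, 79.2, 78.6 and 73.3 CPM in CKO replicates 2, 6, 7 and 8 and at 97.7, 102, 89.7 and 97.9 CPM in FLOX replicates 3, 4, 6 and 7. CKO replicate 2 and FLOX replicate 6 were the nearest to each other, at a ratio of 0.963, and the log2 fold change was -0.29 with an SE of 0.07 (edgeR adjusted p = 0.00361). Together with Tmem173 and Samhd1 these kinases form a group of 4 members whose CKO levels lay between 81.9% and 83.1% of FLOX. Under total counts alone the falls of Tbk1, Ikbke and Samhd1 shrank to -0.17, -0.19 and -0.17 and stayed called (edgeR adjusted p = 0.0413, 0.0272 and 0.0256). With the replicate number as a block they were -0.21, -0.25 and -0.26 and were not called (edgeR adjusted p = 0.162, 0.107 and 0.0602). The labels state no such pairing, and the block compares the genotypes only in replicates 6 and 7 and leaves few degrees of freedom.

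Mavs did not pass the test. It encodes the adaptor on the outer mitochondrial membrane through which the RNA sensors RIG-I and MDA5 reach the same kinases (ENSMUSG00000037523, chromosome 2, 131234063 to 131248025). Mavs was at 56.7, 57.9, 49.9 and 57.1 CPM in CKO replicates 2, 6, 7 and 8 and at 52.2, 48.5, 52.6 and 57.9 CPM in FLOX replicates 3, 4, 6 and 7. The groups overlapped, with CKO replicate 7 low and FLOX replicate 7 high. The log2 fold change was 0.07 with an SE of 0.07 (edgeR adjusted p = 0.468), and its 95% interval ran from 94.0% to 117% of FLOX.

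Among the enzymes that remove DNA, the cytosolic and the lysosomal nuclease moved in opposite directions. Trex1, the main 3′ exonuclease of the cytosol (ENSMUSG00000049734, chromosome 9, 109057933 to 109059734), was at 50.1, 45.4, 49.7 and 43.9 CPM in CKO replicates 2, 6, 7 and 8. In FLOX replicates 3, 4, 6 and 7 it was at 37.3, 35.8, 40.4 and 30.7 CPM. CKO replicate 8 lay only 1.08-fold above FLOX replicate 6, and the log2 fold change was 0.39 with an SE of 0.09 (edgeR adjusted p = 0.00279). That put CKO at 131% of the FLOX level (95% interval 115% to 149%). Dnase2a (ENSMUSG00000003812, chromosome 8, 84908560 to 84922915) encodes DNase II, the acid nuclease that digests engulfed and autophagic DNA in lysosomes. It was at 179.9, 150.1, 155 and 144 CPM in CKO replicates 2, 6, 7 and 8 and at 262, 245, 236 and 219.7 CPM in FLOX replicates 3, 4, 6 and 7. The groups stood well apart, with CKO replicate 2 the nearest to FLOX. Dnase2a had a log2 fold change of -0.61 (SE 0.08, edgeR adjusted p = 4.88e-05). That put CKO at 65.4% of the FLOX level (95% interval 58.1% to 73.5%). The ratio of Trex1 to Dnase2a counts was 0.301 ± 0.0170 in CKO and 0.150 ± 0.0145 in FLOX (SD of 4 libraries each), without overlap.

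Reads of these members cannot be fully told apart from those of genes that overlap them, since the use of strand in counting was not given in the sources used here. Mast1, on the opposite strand within the annotated span of Dnase2a, also fell, from 15.5 ± 1.52 to 9.40 ± 1.35 CPM (SD of 4 libraries each; edgeR log2 fold change -0.72, adjusted p = 0.000269). Atrip, which overlaps Trex1 on the same strand and acts in the DNA damage checkpoint, rose from 10.4 ± 0.630 to 13.0 ± 1.02 CPM (edgeR log2 fold change 0.32, adjusted p = 0.0113). Col18a1, opposite Slc19a1, rose from 25.3 ± 2.04 to 35.6 ± 3.50 CPM (edgeR log2 fold change 0.49, adjusted p = 0.000576). Each of the 3 partners thus moved in the direction of the member it overlaps, and how many reads the pairs share was not tested.

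Samhd1 was the member with the most reads. It encodes a triphosphohydrolase that lowers the pool of deoxynucleotides and helps clear nascent DNA at stalled replication forks (ENSMUSG00000027639, chromosome 2, 157097533 to 157135265). It was at 575, 524, 539 and 534 CPM in CKO replicates 2, 6, 7 and 8 and at 657, 693, 604 and 672 CPM in FLOX replicates 3, 4, 6 and 7. FLOX replicate 6 was the FLOX library nearest to CKO, and the log2 fold change was -0.27 with an SE of 0.06 (edgeR adjusted p = 0.00322). CKO thus held 82.7% of the FLOX level. The enzyme that makes deoxynucleotides moved the other way: Rrm2, a subunit of ribonucleotide reductase, rose from 46.8 ± 11.8 to 187 ± 17.2 CPM and Rrm1 from 154 ± 24.7 to 317 ± 20.3 CPM (SD of 4 libraries each; edgeR log2 fold changes 1.99 and 1.04, adjusted p = 2.27e-06 and 4.89e-06).

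Enpp1, the ectoenzyme that hydrolyses cGAMP outside the cell, did not pass the test (ENSMUSG00000037370, chromosome 10, 24637914 to 24712159). It was at 28.2, 32.1, 31.2 and 35.0 CPM in CKO replicates 2, 6, 7 and 8 and at 31.9, 35.1, 32.0 and 35.2 CPM in FLOX replicates 3, 4, 6 and 7. CKO replicate 2 was low and the other CKO libraries lay close to or within the FLOX range. The log2 fold change was -0.08 with an SE of 0.08 (edgeR adjusted p = 0.419), with a 95% interval from 84.2% to 106% of FLOX.

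Slc19a1 encodes the reduced folate carrier, which has also been described as an importer of cyclic dinucleotides in human cells (ENSMUSG00000001436, chromosome 10, 77032241 to 77061002). It was at 13.7, 12.9, 12.7 and 13.1 CPM in CKO replicates 2, 6, 7 and 8 and at 7.15, 6.43, 7.99 and 6.88 CPM in FLOX replicates 3, 4, 6 and 7. The CKO libraries lay close together, with a coefficient of variation of 3.23%, and the lowest stood 1.59-fold above the highest FLOX library. The log2 fold change was 0.87 with an SE of 0.09 (edgeR adjusted p = 1.22e-05). That put CKO at 183% of the FLOX level (95% interval 159% to 209.9%). Values rest on 85 to 206 counts per library, the fewest of the 10 genes.

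**Figure D3:**
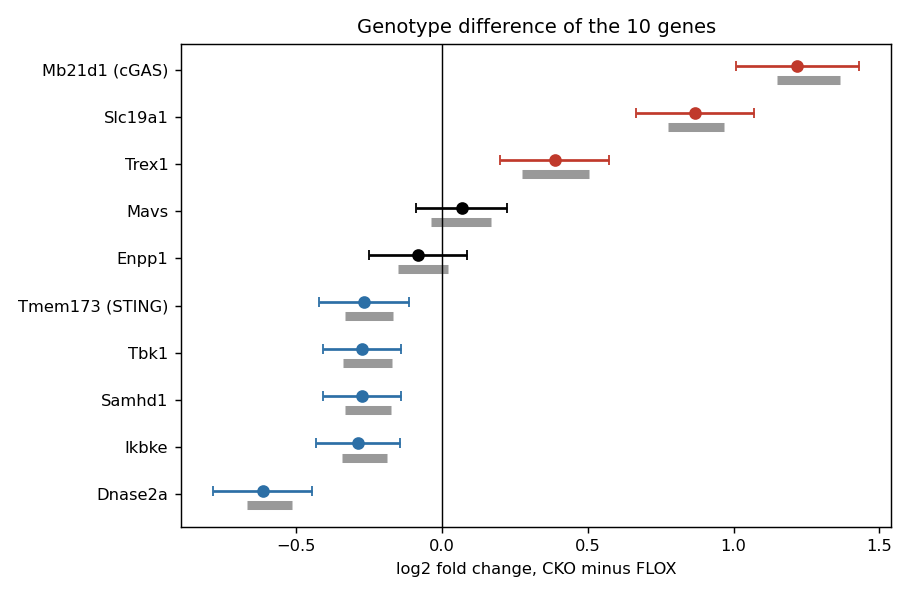
Log2 fold change of CKO over FLOX for each gene, with its 95% interval (points and whiskers; red called higher, blue called lower, black not called) and the range over 20 alternatives (grey bars). Mb21d1 lies at 1.22, Dnase2a at -0.61, and 4 falls lie between -0.29 and -0.27.

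Levels of different genes were compared per kilobase of exon, with lengths of coding transcripts from GENCODE. In FLOX, Dnase2a (123 ± 8.96 CPM per kb) and Samhd1 (119 ± 6.88) stood highest and overlapped (SD of 4 libraries each). Tbk1 followed at 45.4 ± 2.86, and Tmem173 (34.2 ± 2.07), Trex1 (31.4 ± 3.53) and Ikbke (29.3 ± 1.57) came next, with the range of Trex1 overlapping both of its neighbours. Mavs was at 17.1 ± 1.25, Enpp1 (4.95 ± 0.274) and Mb21d1 (4.40 ± 0.377) overlapped, and Slc19a1 was lowest at 1.82 ± 0.168. The sensor thus sat near the bottom of the pathway in FLOX, well below its adaptor. In CKO the order changed in places, while Slc19a1 stayed lowest (3.34 ± 0.108 CPM per kb). Samhd1 (98.8 ± 4.07 CPM per kb) stood above Dnase2a (80.4 ± 8.00) without overlap, Trex1 (41.2 ± 2.71) ranked just above Tbk1 (37.6 ± 1.44) with overlap, and Mb21d1 (10.2 ± 1.22) stood above Enpp1 (4.67 ± 0.413) without overlap. These orders depend on the length used. With the exons of all transcripts, Dnase2a has 5389 bases in place of 1958 and Ikbke 9018 in place of 3309. Samhd1 then ranks above Dnase2a in FLOX too, while Trex1 ranks above Dnase2a in CKO. Mb21d1 then ranks above Enpp1 in FLOX too (means of 4.35 and 3.27 CPM per kb), and in CKO it ranks above Ikbke (10.1 and 8.80).

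**Figure D4:**
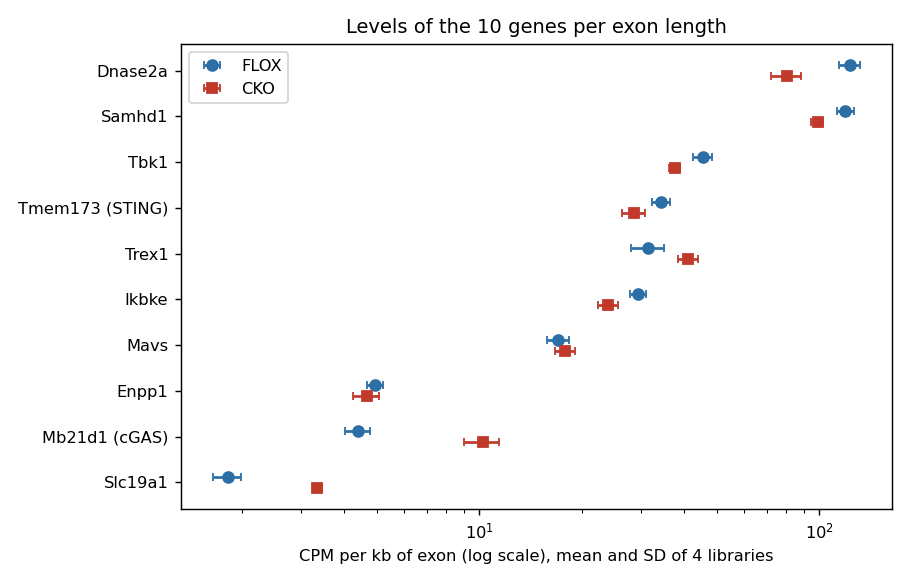
Level of each gene in CPM per kb of exon (log axis), mean and SD of 4 libraries per group, ordered by FLOX. Mb21d1 moves from 4.40 to 10.2 while the genes around it in the pathway, Tmem173 and Tbk1, shift down slightly.

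Promoters were searched for short motifs in the 250 bases before each RefSeq start. Of the 10 members 9 matched, all but Tmem173, and Trex1 and Slc19a1 had 2 starts each. Some RefSeq starts lie inside the GENCODE spans given above. Both windows of Slc19a1 and the inner window of Trex1 fall wholly within those spans. The outer window of Trex1 and those of Samhd1, Dnase2a and Ikbke fall there in part, so these are not all sequence upstream of the gene. The interferon-stimulated response element, searched as the letters GAAA, any 2 bases, and GAAA again, which 2.98% of 32851 RefSeq promoters hold in that window, and the E-box CACGTG (6.02%) were not among the letters of these windows on either strand. The interferon gamma-activated site TTCNNNGAA (7.02%) occurred once, in Samhd1, 235 bases before the RefSeq start. Its match, at 157135323 to 157135331, lies nearer to the end of the GENCODE span on this minus strand, at 157135265. The part of the Samhd1 window inside that span is not printed. Shown are the window of Mb21d1, the gene with the largest change, which holds none of the 3 motifs, and the outer part of that of Samhd1, with its match in capitals (RefSeq, GRCm38.p6, both on the minus strand, chr9:78443238-78443487 and chr2:157135266-157135346).
Mb21d1: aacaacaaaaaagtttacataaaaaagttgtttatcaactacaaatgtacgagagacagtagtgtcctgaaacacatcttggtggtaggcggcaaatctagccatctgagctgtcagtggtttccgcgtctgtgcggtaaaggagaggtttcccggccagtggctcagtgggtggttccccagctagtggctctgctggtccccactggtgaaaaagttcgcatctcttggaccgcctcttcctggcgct
Samhd1: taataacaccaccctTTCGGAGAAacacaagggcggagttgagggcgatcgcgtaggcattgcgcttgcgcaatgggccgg
A match or its absence describes these letters and says nothing of binding.

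Of 48 tested regulators and carriers of STING 6 rose and 15 fell, or 12.5% and 31.2% against 23.8% and 21.6% of all tested genes, and the median of their log2 fold changes was -0.12. The balance depended on the scaling, with 7 higher and 5 lower under total counts alone. The count of falls was 8, 8 and 7 without CKO replicate 6, 7 or 8. The deubiquitinating enzyme gene Usp18, itself interferon-inducible, rose by 0.61, the stress granule protein gene G3bp1 by 0.49 and the ubiquitin ligase gene Rnf26 by 0.42. Optn, an autophagy receptor that binds TBK1, fell from 35.2 ± 1.72 to 23.8 ± 1.24 CPM (SD of 4 libraries each; edgeR log2 fold change -0.56, adjusted p = 3.66e-05). Rhbdf2, which encodes the inactive rhomboid iRhom2, changed by -0.58 and the autophagy kinase gene Ulk1 by -0.53. Irf3, the transcription factor that TBK1 phosphorylates, averaged 35.6 ± 3.73 CPM in the CKO and 38.5 ± 6.59 CPM in the FLOX libraries (edgeR log2 fold change -0.12, adjusted p = 0.426); it is named here after its value was seen.

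Genes that carry or break down cGAMP rose more often than they fell. Of 11 tested genes 6 rose and 2 fell (54.5% and 18.2%, against 23.8% and 21.6% of all tested genes), with a median of 0.26, and 5 of the 16 listed genes had too few counts to test. Smpdl3b rose from 4.22 ± 0.759 to 12.3 ± 0.650 CPM (SD of 4 libraries each; edgeR log2 fold change 1.52, adjusted p = 1.74e-06), and the connexin gene Gja1 from 0.847 ± 0.165 to 4.77 ± 1.53 CPM (edgeR log2 fold change 2.47, adjusted p = 1.35e-05). Abcc1, an exporter of cGAMP, rose by 0.36 on the log2 scale. Slc46a3, a lysosomal transporter, fell from 40.6 ± 1.35 to 25.8 ± 3.70 CPM (edgeR log2 fold change -0.66, adjusted p = 9.04e-05), and the ATP-gated channel gene P2rx7 changed by -0.30.

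Of 22 other tested genes of nucleic acid clearance 11 rose and 3 fell, with a median of 0.19. Those are 50% and 13.6%, beside 23.8% and 21.6% of all tested genes. The list also holds genes that make deoxynucleotides or act in replication, and Rrm2, Rrm1 and Fen1 are among its rises. After Rrm2 and Rrm1 the smallest p among the rises was that of Fen1, the flap endonuclease of replication (edgeR log2 fold change 0.67, adjusted p = 1.02e-05). The 3 falls were the lysosomal exonuclease genes Pld3 and Pld4 and Dnase1l1. Pld3 averaged 284 ± 48.9 CPM in the CKO and 544 ± 31.5 CPM in the FLOX libraries (SD of 4 libraries each; edgeR log2 fold change -0.94, adjusted p = 1.27e-05), and Dnase1l1 and Pld4 changed by -0.57 and -0.35. Dnase2a, in lysosomes with PLD3 and PLD4, fell as well. Dnase2b and Trex2 had 0 counts in every library.

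Other DNA sensing genes rose more often than they fell, 11 against 4 of 27 tested (median 0.15), or 40.7% and 14.8% beside 23.8% and 21.6% of all tested genes. The falls numbered 2 without CKO replicate 6 or 7 and 2 under total counts alone. Mnda rose by 1.22, Ifi204 by 0.76 and Zbp1, a sensor of nucleic acids in the Z form, by 0.92. Ctnnb1 (-0.74), Unc93b1 (-0.47), which brings nucleic acid sensing Toll-like receptors to endosomes, and the inflammasome sensor gene Aim2 (-0.19) fell. Mnda and Ifi204 have close relatives, and their reads can be split among them. A list of RNA sensing held the receptors that signal through Mavs, endosomal receptors that do not, and factors at or after Mavs. Of its 24 tested genes 6 rose and 3 fell (median -0.02), and the 25% that rose are near the 23.8% of all tested genes. The falls numbered 5 without FLOX replicate 3 or FLOX replicate 6 and 7 without both. Cytosolic receptors were among the risers: Ddx58 (RIG-I) rose from 99.7 ± 5.79 to 172 ± 4.88 CPM (SD of 4 libraries each; edgeR log2 fold change 0.78, adjusted p = 1.12e-06), Dhx58 by 0.98 and Ifih1 (MDA5) by 0.65. Ticam1, the adaptor of TLR3, Traf5 and the endosomal RNA receptor gene Tlr7 changed by -0.50, -0.40 and -0.34. Tlr3 itself rose (edgeR log2 fold change 0.57, adjusted p = 0.000266), so the endosomal receptors did not move together.

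Most genes of a list read as an interferon readout, mainly interferon-inducible genes, were higher in CKO. Whether these rises come through this pathway was not tested. Of 27 tested genes 24 rose and 1 fell (88.9% and 3.7%, against 23.8% and 21.6% of all tested genes), with a median of 1.10. The 2 that were not called are interferon receptor genes. Irf7 (1.77), Ifi44 (2.33) and Mx1 (2.05) had the smallest p, and the exception was the transcription factor gene Irf1 (-0.58). Ifnb1, the interferon gene itself, had 1 count over all libraries. Markers of other myeloid cells did not all move the same way. All 4 tested of 8 monocyte markers rose, with a summed level of 182 to 198 CPM in CKO and 119 to 129 CPM in FLOX, and no marker of that list was at 0. Of 9 dendritic markers 2 could be tested and Bst2, which leads their sum and is interferon-inducible, rose by 0.43 (sum 213 to 234 against 145 to 184 CPM). Of 11 neutrophil markers 3 of 5 tested rose, at means of at most 3.11 CPM in CKO. Csf3r, which leads the sum of that list, fell, and so did the sum (121 to 150.0 against 218 to 314 CPM), with Elane and Retnlg at 0. The part of such cells in the rise of Mb21d1 was not tested, and in bulk RNA more cells of a type and more RNA per cell cannot be told apart.

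Of 19 tested genes that keep or release mitochondrial DNA, 6 rose and 4 fell, with a median of 0.03. These shares of 31.6% and 21.1% compare with 23.8% and 21.6% of all tested genes, so the falls are at the background. The falls numbered 2, 1 and 2 without CKO replicate 6, 7 or 8 and 1 under total counts alone. The rises included Atad3a (0.53), which encodes a protein of mitochondrial nucleoids, the mitochondrial protease gene Lonp1 (0.31) and the channel gene Vdac3 (0.34). The falls included the mitochondrial nucleoside kinase genes Tk2 (-0.30) and Dguok (-0.26) and the pore-forming protein gene Gsdmd (-0.25). Around Slc19a1, 7 of 12 folate genes rose and 1 fell (58.3% and 8.33%, against 23.8% and 21.6% of all tested genes), with a median of 0.36. Mthfd1, an enzyme of cytosolic one-carbon metabolism, rose by 0.82 on the log2 scale, while Folr1, a folate receptor below 2 CPM in either group, changed by -1.08.

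**Figure D5:**
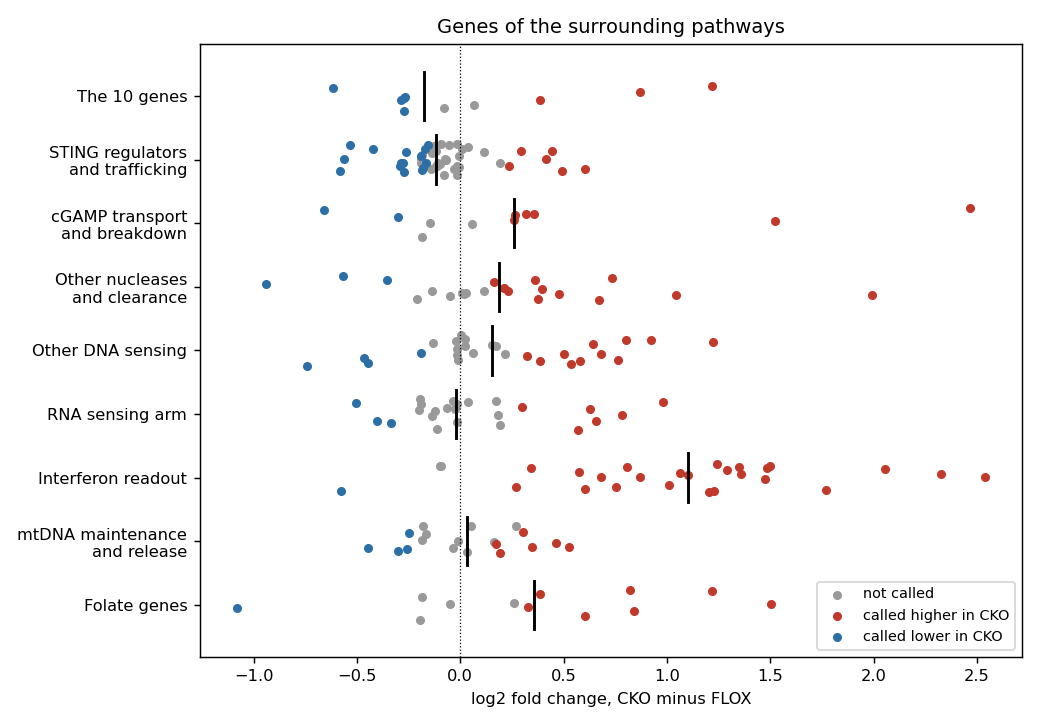
Log2 fold change of every tested gene in each list (points, coloured by call), with the list's median as a black bar. The interferon readout lies furthest to the right with a median of 1.10, while the regulators of STING centre at -0.12.

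The genes whose log2 CPM followed that of Mb21d1 most closely over the 8 libraries, among 8947 whose log2 CPM averaged 3 or more, were Plau (Pearson r 0.997), Snx2 (0.997), Pla2g4a (0.997), Havcr2 (0.997) and Prmt3 (0.996). After the group means were removed, r lay between 0.926 (Prmt3) and 0.970 (Havcr2). For Tmem173 they were Mib2 (0.983), Usb1 (0.979), Hadhb (0.976), Gm12942 (0.974) and Rab13 (0.973), with r between 0.911 and 0.960 after removal. These values describe 8 points that share the genotype split and the scaling, and the genes were picked as the highest of many.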

How the data were processed

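Bulk RNA of 4 CKO and 4 FLOX libraries was analysed from the counts that the authors deposited, which are whole numbers per gene symbol and not normalised. The submitters' processing notes name HISAT2 2.0.5, HTSeq and the build mm10. The annotation, the version of HTSeq and the use of strand in counting were not given in the sources used here. The deposited series table held the same counts in its 8 columns, but 27 gene names had become dates, so single files were used (0 columns had no sample). Pairs assigned to genes were 66.3% to 71.7% of all, and the 5 unassigned classes were left out. No pair of libraries within a group agreed within sampling noise (chi-square over its degrees of freedom, 2.45 to 27.8).

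Counts were filtered by filterByExpr (minimum count 10, minimum total 15), scaled by TMM and tested in edgeR 4.0.16 (R 4.3.3) with robust quasi-likelihood fits. Standard errors were taken from the fold change and F, and 95% intervals from the moderated degrees of freedom. Alternatives included limma 3.58.1 and DESeq2 1.42.0. Positions and lengths are from GENCODE M21 and promoters from RefSeq. Gsdme and Twnk were matched as Dfna5 and Peo1.

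The members and lists were chosen with earlier results of these data known, so their counts are descriptions. Named are all members, up to 3 called genes of smallest p per list and direction, and the 5 genes most correlated with Mb21d1 and with Tmem173. Irf3, Ifnb1, Tlr3, Mrc1, Bst2, Csf3r, the overlapping partners and genes given at 0 counts stand outside this rule. Some genes that this rule names are not reported here.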

Additional observations from a re-analysis of the deposited data

Results flagged for a closer look

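Of 20 sets of 4 values (10 genes in 2 groups), 1 held a value set apart from the rest. Mavs stood at 49.9 CPM in CKO replicate 7, below the other 3 CKO libraries at 56.7 to 57.9 CPM. Its gap to the nearest was 0.852 of the range, over Dixon's 95% critical value for 4 values, and about 1 set in 20 passes that limit by chance. Without CKO replicate 7 the log2 fold change of Mavs was 0.14 (edgeR adjusted p = 0.174).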

How the results depend on the processing

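Over 20 alternatives, Mb21d1, Trex1, Dnase2a and Slc19a1 were called in all, and Tmem173, Tbk1, Ikbke and Samhd1 in 19 each, without a change of sign for any of these 8. The exceptions were Tmem173 under total counts alone (log2 fold change -0.17, edgeR adjusted p = 0.0646) and, with the replicate number as a block, Tbk1 (-0.21, edgeR adjusted p = 0.162), Ikbke (-0.25, edgeR adjusted p = 0.107) and Samhd1 (-0.26, edgeR adjusted p = 0.0602). Mavs and Enpp1 were called in none, and changed sign once each, Mavs to -0.037 with the replicate block and Enpp1 to 0.021 under total counts alone. In the replicate block 2 members fell, against 5 without it, and 1518 of all genes fell, against 2492. Only numbers 6 and 7 occur in both groups, so the block compares the genotypes in those libraries alone. That leaves it few degrees of freedom, and the labels state no pairing. The deviations of same-numbered libraries correlated at 0.14 and -0.07, and those of other pairs at -0.30 to 0.24. Such values cannot tell whether same-numbered libraries share an origin. Total counts alone gave 1556 genes lower. Asking for a log2 fold change above 0.5 as well gave 1445 genes higher and 778 lower, with 1 member lower (Dnase2a) and 2 higher. With each library left out in turn, 3 members rose and 5 fell every time. Counts of rises in the pathway lists stayed within 1.5 times the reported ones, except 7 in nucleic acid clearance with the replicate block, against 11. Counts of falls moved further in 6 of 8 lists. Falls among regulators of STING ranged from 5 to 18, against 15 reported, with 5 alternatives beyond 1.5 times (6 with the replicate block), and those of mitochondrial DNA from 0 to 4, with 7. Leaving out FLOX replicates 3 and 6, or 4 and 7, was added after the data were seen. Depth was lowest for Slc19a1, with 85 to 206 counts per library. The causes of these changes were not tested.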
